A study of Mus musculus with 6 samples.

Results

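Krüppel-like factors (KLFs) are transcription factors that bind GC-rich and CACCC-box sequences through a block of zinc fingers at their C-terminal end. Klf2, Klf4, Klf5, Klf6 and Klf7 are known mainly as activators, Klf3 as a repressor that recruits the CtBP corepressors, and Klf9, Klf10, Klf11 and Klf13 as repressors that can recruit Sin3A. Several of them are switched on quickly by serum, growth factors or stress in fibroblasts, and their mRNAs are often short-lived. Their mRNA levels are described here in mouse embryonic fibroblasts (MEFs) without the UFM1 ligase gene Ufl1. The 10 genes Klf2, Klf3, Klf4, Klf5, Klf6, Klf7, Klf9, Klf10, Klf11 and Klf13 were found by symbol, each on 1 row of the tables, among 18134 distinct gene names. They were chosen with the values of the knockout against control comparison in view, so their differences are given as a description. The fit over all genes included them, but its calls on them are not independent evidence and no p-value is printed for them.

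The series compared 3 libraries from MEFs with the genotype Ufl1-KO with 3 libraries from control MEFs called NC, a name with no further explanation. Ufl1 is the ligase that attaches the ubiquitin-like protein UFM1 to its targets, largely at the endoplasmic reticulum. The title of the series mentions knockdown of UFMylation genes and 24 h of hypoxia, but no library carries a label for oxygen, so whether the cells were hypoxic is not known here. How the knockout was made, how many clones it covers, and whether replicates were separate cultures are not stated, so the spread and the p-values below may be technical only.

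Total counts were 17472432 to 21831860 per Ufl1-KO library and 15887011 to 19779066 per NC library. Ufl1 itself had 3.08, 3.76 and 4.60 CPM (counts scaled to a common library size) in the Ufl1-KO libraries against 22.9, 27.0 and 27.0 CPM in the NC libraries, a log2 fold change of -2.75 ± 0.15 (SE; edgeR quasi-likelihood test, adjusted p = 1.59e-06). Of the 12 fibroblast markers, 11 were tested and 10 fell in Ufl1-KO, beside 33.1% of all tested genes. Their summed level was 15789 to 15971 CPM in Ufl1-KO and 27517 to 32120 CPM in NC. Lum was close to 0 in every library, and Thy1, tested but not called, averaged 0.888 CPM in Ufl1-KO and 0.838 CPM in NC. The 6 endothelial markers summed to 5.51 to 6.52 CPM in Ufl1-KO and 4.83 to 7.42 CPM in NC, and Tie1 and Emcn were at 0 in all 6 libraries. The epithelial markers summed to 322 to 333 CPM in Ufl1-KO and 306 to 410 CPM in NC. Most of that sum was Krt18, which averaged 295 CPM in Ufl1-KO and 312 CPM in NC. Within the epithelial list, Cdh1 rose by 0.70 and Krt14 fell by 1.08 on the log2 scale (edgeR adjusted p = 0.00268 and 1.05e-05). The macrophage markers summed to 17.5 to 23.8 CPM in Ufl1-KO and 34.5 to 38.2 CPM in NC. The pluripotency markers summed to 3.98 to 5.73 CPM in Ufl1-KO and 3.54 to 4.02 CPM in NC, with Zfp42 at 0. In bulk RNA, fewer cells of a type and less RNA per cell cannot be told apart, and the part of these marker differences in the KLF values was not tested. NC replicate 1 stood apart: over genes, its counts differed from those of the other NC libraries with a chi-square of 29.3 and 22.1 per gene, against 2.52 to 3.96 for the other pairs of replicates. Each KLF difference is therefore given with and without it.

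The KLF genes did not move as a block. Klf2, Klf3, Klf4 and Klf6 were higher in Ufl1-KO than in NC, Klf5, Klf7, Klf9, Klf10 and Klf11 were lower, and Klf13 overlapped between the groups. The summed level of the 10 genes was 797 ± 5.54 CPM in Ufl1-KO and 852 ± 121 CPM in NC (SD, n = 3 each, as for every ± on a level below). CPM values are scaled by TMM, a library scaling that assumes most genes are alike. In the edgeR fit over all genes, 9 of the 10 passed an adjusted p of 0.05, 4 higher and 5 lower, in a comparison in which 66.0% of all 12580 tested genes were called (33.0% higher and 33.1% lower). The same 9 did not overlap between the groups, against 71.2% of all tested genes (36.0% higher and 35.2% lower). These counts stand on the comparison that the list was chosen from, and nothing is read from them. Without NC replicate 1, Klf13 too was called, giving 5 higher and 5 lower, beside 74.9% of all genes (37.6% higher and 37.4% lower). Without NC replicate 3, Klf2 and Klf3 were no longer called, which left 2 higher and the same 5 lower. In that run 3651 of all 12751 tested genes were called higher and 3833 lower, against 4146 and 4163 of 12580 with all libraries. Klf2 was also not called when NC replicate 2 or any 1 Ufl1-KO library was left out, or by the DESeq2 Wald test.

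**Figure D1:**
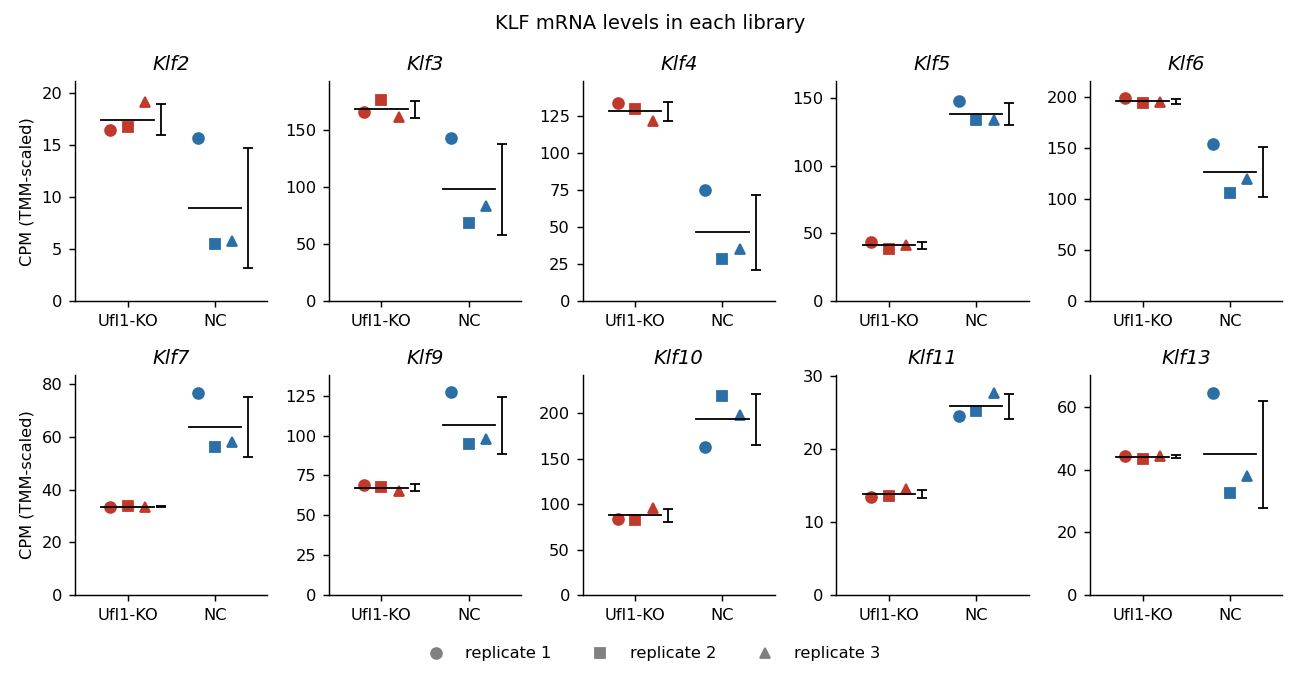
CPM (linear axis from 0, a separate scale for each gene) of the 10 KLF genes in each of 3 Ufl1-KO libraries (red) and 3 NC libraries (blue), with the group mean as a line and the SD as a bar beside it. For Klf2, Klf3, Klf4, Klf6, Klf7, Klf9 and Klf13 the NC circle (replicate 1) lies well above the other NC points. For Klf13 it lies above all Ufl1-KO points while the other NC points lie below them.

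Among the activators, Klf4, one of the factors used to reprogram fibroblasts to pluripotency, had the largest positive difference of the 10 genes. It had 134, 130 and 122 CPM in Ufl1-KO and 75.4, 28.7 and 35.6 CPM in NC. Every Ufl1-KO library was above every NC library, and NC replicate 1 was the highest NC library. The means were 128 ± 6.26 CPM in Ufl1-KO and 46.6 ± 25.2 CPM in NC, a log2 fold change of 1.46 ± 0.29 (SE), which was 2.01 without NC replicate 1. Klf2, a factor best known from quiescent endothelium and naive T cells, had 16.4, 16.7 and 19.1 CPM in Ufl1-KO and 15.6, 5.48 and 5.79 CPM in NC. NC replicate 1 lay just under the lowest Ufl1-KO library, and the other NC libraries lay far below both. The log2 fold change was 0.96 ± 0.34 (SE) with all libraries and 1.63 without NC replicate 1. Klf6, a widely expressed factor linked to injury responses and growth restraint, had 198, 193 and 195 CPM in Ufl1-KO and 153, 105 and 120 CPM in NC. Its groups did not overlap, and its log2 fold change was 0.63 ± 0.12 (SE), and 0.80 without NC replicate 1.

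Klf5, which promotes proliferation in fibroblasts, smooth muscle and epithelial crypts, went the other way and had the largest negative difference of the 10 genes. It had 43.8, 38.5 and 41.5 CPM in Ufl1-KO and 148, 133 and 134 CPM in NC. It was 3.35-fold lower in Ufl1-KO, with a log2 fold change of -1.74 ± 0.078 (SE), and here NC replicate 1 lay close to the other NC libraries. Without that library it was -1.69. Klf7, known for axon growth and for holding back adipocyte differentiation, had 33.5, 33.7 and 33.3 CPM in Ufl1-KO and 76.6, 56.3 and 58.2 CPM in NC. The Ufl1-KO libraries were nearly equal and all below NC, and the log2 fold change was -0.93 ± 0.12 (SE), and -0.77 without NC replicate 1. Summed over the 5 activators, the level was 416 ± 8.57 CPM in Ufl1-KO and 384 ± 74.6 CPM in NC, a difference smaller than the spread among NC libraries. Deposited FPKM of these 5 genes summed to 127, 121 and 122 for the Ufl1-KO libraries, against 118, 79.7 and 85.7 for the NC libraries, without overlap. These FPKM differ from the CPM in library scaling as well as in length, since they use the library total and not TMM. The TMM factors ran from 1.056 to 1.073 for Ufl1-KO libraries but from 0.9305 to 0.9532 for NC libraries. Whether length or scaling set the FPKM sums apart was not tested.

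Klf3, the CtBP-binding repressor that restrains adipogenesis in mouse cells, had 166, 176 and 162 CPM in Ufl1-KO and 143, 68.0 and 83.0 CPM in NC. All Ufl1-KO libraries were above all NC libraries, with NC replicate 1 nearest to them. The log2 fold change was 0.78 ± 0.23 (SE), and 1.15 without NC replicate 1. The deposited FPKM values, which divide by gene length and library total, gave a smaller difference, described further on.

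The Sin3-binding repressors were lower in Ufl1-KO as a sum, at 213 ± 6.22 CPM in Ufl1-KO and 371 ± 8.86 CPM in NC, with no overlap between libraries. Klf10, first described as a TGF-beta-inducible early gene, had 84.0, 83.2 and 95.9 CPM in Ufl1-KO and 163, 219 and 198 CPM in NC. Its log2 fold change was -1.14 ± 0.11 (SE), and -1.25 without NC replicate 1, the lowest of the NC libraries. Klf11, its closest relative and also TGF-beta-inducible, had 13.5, 13.6 and 14.5 CPM in Ufl1-KO and 24.6, 25.3 and 27.8 CPM in NC. The NC libraries were close together, and the log2 fold change was -0.90 ± 0.091 (SE), and -0.93 without NC replicate 1. Klf9, a target of the glucocorticoid and thyroid hormone receptors, had 69.2, 67.8 and 65.2 CPM in Ufl1-KO and 127, 94.6 and 97.7 CPM in NC. Its groups were apart too, with a log2 fold change of -0.66 ± 0.11 (SE), and -0.51 without NC replicate 1. Klf13, which regulates Ccl5 in T cells, had 44.4, 43.5 and 44.5 CPM in Ufl1-KO and 64.4, 32.5 and 37.9 CPM in NC. Its groups overlapped, because NC replicate 1 was above all Ufl1-KO libraries and the other NC libraries below them. The log2 fold change was -0.03 ± 0.21 (SE) with all libraries, 0.15 when libraries were scaled by size alone, and 0.33 without NC replicate 1.

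The start regions of the members at either end of the order are shown to let their GC-rich sequence be read beside these values. They are the 250 bases before the start in RefSeq (GRCm38.p6), 5′ to 3′ on the gene's strand, for the largest positive (Klf4, Klf2) and the largest negative (Klf7, Klf11) log2 fold changes among the 8 members with an entry. Klf5 and Klf10 had none. Capitals mark CACCC (the KLF box), GGGCGG (the Sp1-type GC box), ACGTG (the core of hypoxia response elements and, within CACGTG, of E-boxes) and TGACG (the core of cAMP and ATF elements), on either strand, and the MEF2 box. Klf4 is from chr4:55532476-55532725 (minus strand), Klf2 from chr8:72318812-72319061 (plus strand), Klf7 from chr1:64121390-64121639 (minus strand) and Klf11 from chr12:24651121-24651370 (plus strand).
Klf4: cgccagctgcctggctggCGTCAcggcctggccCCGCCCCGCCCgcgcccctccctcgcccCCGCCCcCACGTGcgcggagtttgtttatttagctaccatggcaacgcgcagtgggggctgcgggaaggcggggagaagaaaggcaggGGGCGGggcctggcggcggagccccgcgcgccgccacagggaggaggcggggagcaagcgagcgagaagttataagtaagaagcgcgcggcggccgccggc
Klf2: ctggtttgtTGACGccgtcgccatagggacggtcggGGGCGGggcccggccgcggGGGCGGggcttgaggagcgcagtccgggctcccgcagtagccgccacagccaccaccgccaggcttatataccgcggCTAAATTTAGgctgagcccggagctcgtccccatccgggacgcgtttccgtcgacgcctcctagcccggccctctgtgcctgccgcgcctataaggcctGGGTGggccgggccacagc
Klf7: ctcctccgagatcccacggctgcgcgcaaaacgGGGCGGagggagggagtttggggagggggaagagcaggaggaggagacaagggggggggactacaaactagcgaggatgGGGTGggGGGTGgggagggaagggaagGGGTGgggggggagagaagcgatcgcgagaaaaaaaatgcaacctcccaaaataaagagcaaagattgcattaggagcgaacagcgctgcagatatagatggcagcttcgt
Klf11: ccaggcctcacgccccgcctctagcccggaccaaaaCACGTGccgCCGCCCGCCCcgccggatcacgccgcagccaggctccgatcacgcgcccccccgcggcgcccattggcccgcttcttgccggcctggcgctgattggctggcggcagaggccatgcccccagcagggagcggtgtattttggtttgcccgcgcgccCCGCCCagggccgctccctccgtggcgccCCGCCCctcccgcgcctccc
GGGCGG was in 7 of the 8 windows and in 32.7% of the 32851 windows of the same length in the table, and CACCC was in 5 of 8 and in 52.0%. ACGTG was in 4 of 8 (Klf4, Klf6, Klf9 and Klf11) and in 16.6% of all, and CACGTG, which contains it on both strands, in 3 of 8 and in 6.02%. TGACG was in 4 of 8 (Klf2, Klf4, Klf9 and Klf13) and in 17.8% of all. TATAAA and the CArG box of serum response factor were in 0 of 8, and in 12.4% and 1.47% of all windows. The GC content of the 8 windows ran from 59.2% to 78.4%, against a median of 52.4%, and short GC-rich motifs are found more often in such sequence. The MEF2 box, searched after the sequences had been seen, was in the Klf2 window alone of the 8, from 118 to 109 bases before the start, and in 2.92% of all windows. Members on either side of the comparison thus shared the same kinds of boxes, and a match is a description of letters, not of binding.

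In the mouse annotation GENCODE M21 (mm10) the 10 genes lie on 10 chromosomes, all protein-coding. Klf4 is at chr4:55527143-55532466 on the minus strand, Klf2 at chr8:72319033-72321656 on the plus strand, and Klf5 at chr14:99298691-99315036 on the plus strand. The starts here differ from those in RefSeq. The Klf7 window printed above lies inside the gene as annotated here (chr1:64029447-64122282, minus strand). The windows of Klf2 and Klf11 run past the starts given here, which is chr12:24651274 for Klf11. Klf7, Klf3 and Klf13 overlap genes of the opposite strand (Gm26649 and Gm13748, Gm20033, and Gm27252 and E030018B13Rik), and since the strand setting of the counting is not given, reads from these could not be told apart. The other 7 overlap no gene of the opposite strand. On the same strand, Klf3 overlaps C230096K16Rik, Klf7 overlaps Mir6899 and Klf9 overlaps Mir1192. The part of these genes in the counts was not tested.

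The order of the KLF mRNAs per length of gene differed between the groups. In Ufl1-KO, Klf6 was highest at 49.8 ± 1.27 FPKM, followed by Klf4 at 45.0 ± 1.94 and Klf3 at 44.3 ± 2.28 FPKM. In NC, Klf10 was highest at 61.7 ± 8.39 FPKM, followed by Klf5 at 38.6 ± 2.74 and Klf3 at 35.3 ± 8.73 FPKM. Klf10 was thus the 4th member in Ufl1-KO, at 30.8 ± 3.08 FPKM, and Klf5 the 6th, at 13.0 ± 0.890 FPKM, whereas Klf4 was the 6th in NC, at 14.5 ± 7.98 FPKM. The ratio of Klf4 to Klf5 in FPKM was 3.39, 3.75 and 3.25 in the Ufl1-KO libraries and 0.567, 0.243 and 0.294 in the NC libraries. Per length, Klf4 exceeded Klf5 in every Ufl1-KO library and was below it in every NC library.

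At the lower end of the order, Klf2 had 9.95 ± 0.935 FPKM in Ufl1-KO and 4.56 ± 2.99 FPKM in NC. Klf13 had 7.29 ± 0.141 FPKM in Ufl1-KO and 6.65 ± 2.7 FPKM in NC. Klf2 was the lowest member in NC but not in Ufl1-KO, where Klf11 took that place. Klf7 had 5.55 ± 0.487 FPKM in Ufl1-KO and 8.95 ± 1.42 FPKM in NC, and Klf11 had 3.59 ± 0.172 FPKM in Ufl1-KO and 5.92 ± 0.321 FPKM in NC. Klf9 stood 5th in both groups, at 15.9 ± 0.400 FPKM in Ufl1-KO and 22.2 ± 4.04 FPKM in NC. In Ufl1-KO, Klf4 and Klf3 were the only neighbours in the order whose ranges overlapped. In NC every pair of neighbours overlapped except Klf10 and Klf5, so most of the NC order does not hold beyond the spread of its libraries. The summed FPKM of the 10 genes was 225 ± 3.42 in Ufl1-KO and 226 ± 28.0 in NC, a difference far smaller than the spread among NC libraries.

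**Figure D2:**
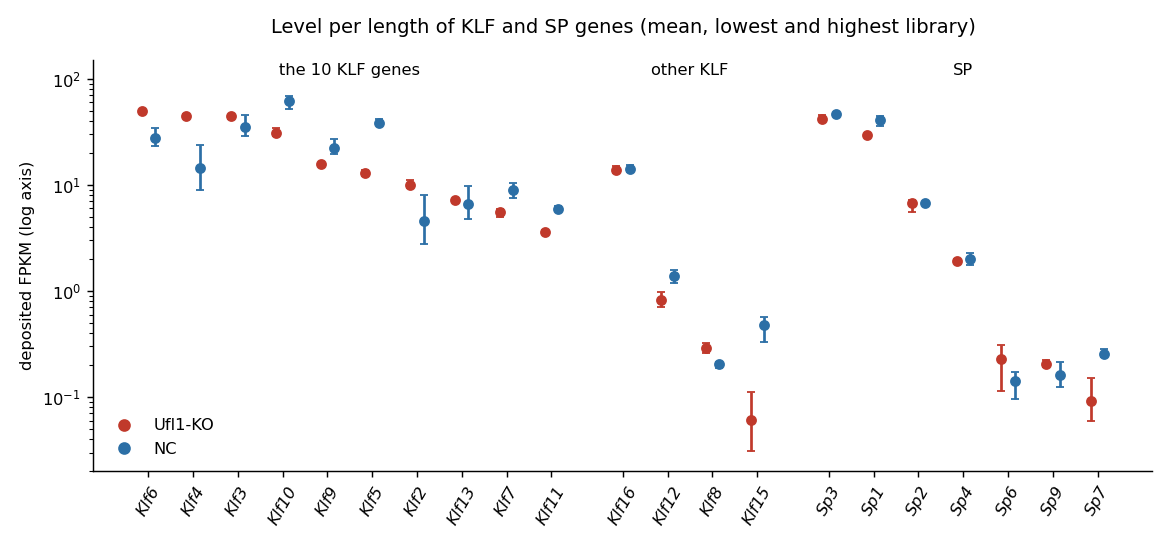
Deposited FPKM on a log axis for the 10 KLF genes, ordered by their Ufl1-KO level, and for the tested members of the other KLF and the SP genes; points are means and bars run from the lowest to the highest of 3 libraries. By their means, Klf10 and Klf5 lie above all other members in NC (blue), where the bars of Klf5 and Klf3 overlap. In Ufl1-KO (red), Klf6, Klf4 and Klf3 lie above Klf10 and Klf5.

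Most of the KLF genes were higher in NC replicate 1 than in the other NC libraries. The members were chosen with earlier results of these data known, so their places among all genes are a description. Against the mean of the other NC libraries on the log2 scale, NC replicate 1 was higher by 1.45 for Klf2, 1.24 for Klf4, 0.93 for Klf3 and 0.87 for Klf13. Those differences exceeded the ones of 99.7%, 99.3%, 97.9% and 97.6% of all tested genes in that library. Klf6, Klf7 and Klf9 were higher by 0.45, 0.42 and 0.40 and Klf5 by 0.14, while Klf11 and Klf10 differed by -0.10 and -0.35. In all, 8 of the 10 members were higher in NC replicate 1, with a median of 0.43, against 49.4% of all tested genes.

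The immediate early genes, which code for fast-induced transcription factors and feedback proteins, were also high in that library, 20 of 21 being above the other NC libraries, with a median of 0.50. The largest of them were Btg2 (1.30), Myc (1.28), Dusp1 (1.24) and Egr3 (1.23), named after their values were seen. The SP genes, relatives of the KLFs that bind GC boxes, did not share this, with 2 of 7 above the other NC libraries. What sets NC replicate 1 apart was not tested, and no label distinguishes it.

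**Figure D3:**
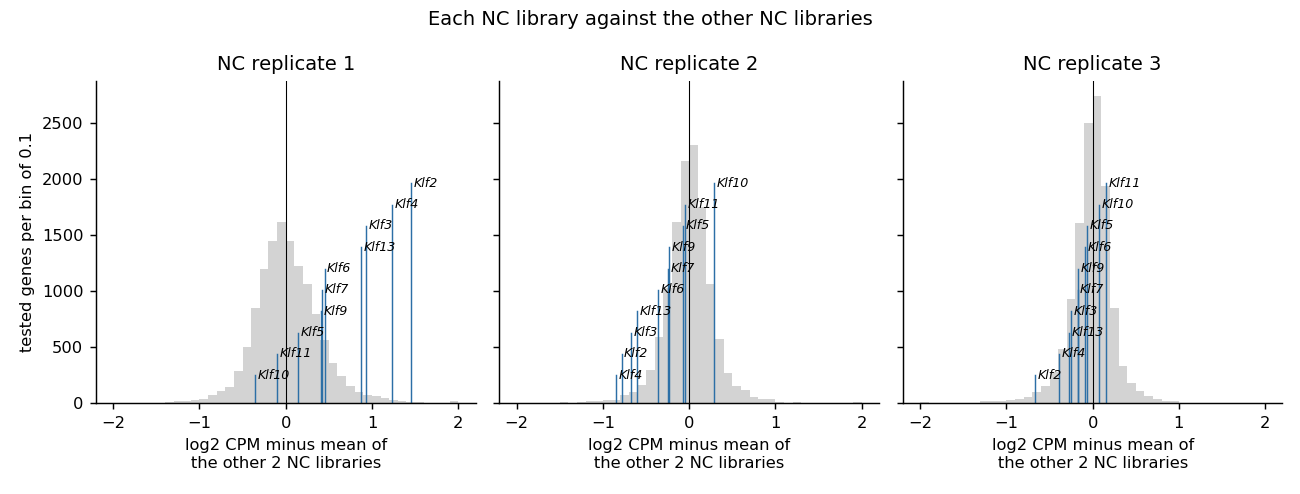
Log2 CPM of each NC library minus the mean of the other 2 NC libraries, for all tested genes (grey histogram, genes per bin of 0.1, values beyond 2 drawn at the end) and for the KLF genes (blue lines; line height only separates the names). In NC replicate 1, Klf2, Klf4, Klf3 and Klf13 lie in the right tail; in NC replicate 2 the same genes lie on the left.

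Klf3 was the member whose counts and FPKM gave different pictures. It had 45.3, 46.0 and 41.7 FPKM in the Ufl1-KO libraries against 45.3, 29.2 and 31.3 FPKM in the NC libraries, so the groups overlapped. A fit with limma on log2(FPKM + 1) gave a log2 fold change of 0.35. Counts gave 0.78 with TMM, and 0.95 when scaled by library size alone, which is closer to the scaling of the FPKM. Dividing each count by its FPKM gives the gene length behind the FPKM, up to the library total. For Klf3 that length was 3860, 4013 and 4122 bases in Ufl1-KO and 2988, 2166 and 2450 bases in NC. It was longer in every Ufl1-KO library, by 0.67 on the log2 scale. Of 11345 genes with enough counts, 22 (0.194%) were at least as far from no difference.

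For most other members the length hardly moved, and Klf6 and Klf10, whose libraries also separated by group, differed by -0.02 and 0.04 on the log2 scale. It was 1847 bases for Klf2, 4486 for Klf9 and 4086 for Klf11 in all 6 libraries, the lengths of the annotated transcripts Klf2-201, Klf9-201 and Klf11-201. Klf7 ranged from 5922 to 7084 bases without a split by group. The annotation lists 9 Klf3 transcripts of 298 to 5221 bases, among them the coding forms Klf3-201 (5221 bases) and Klf3-202 (1562 bases) and retained-intron forms of 4016 and 2749 bases. A length that differs between libraries means that the deposited FPKM used a library-specific length for Klf3, and which transcripts lie behind it was not tested, since transcript values were not analysed here.

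**Figure D4:**
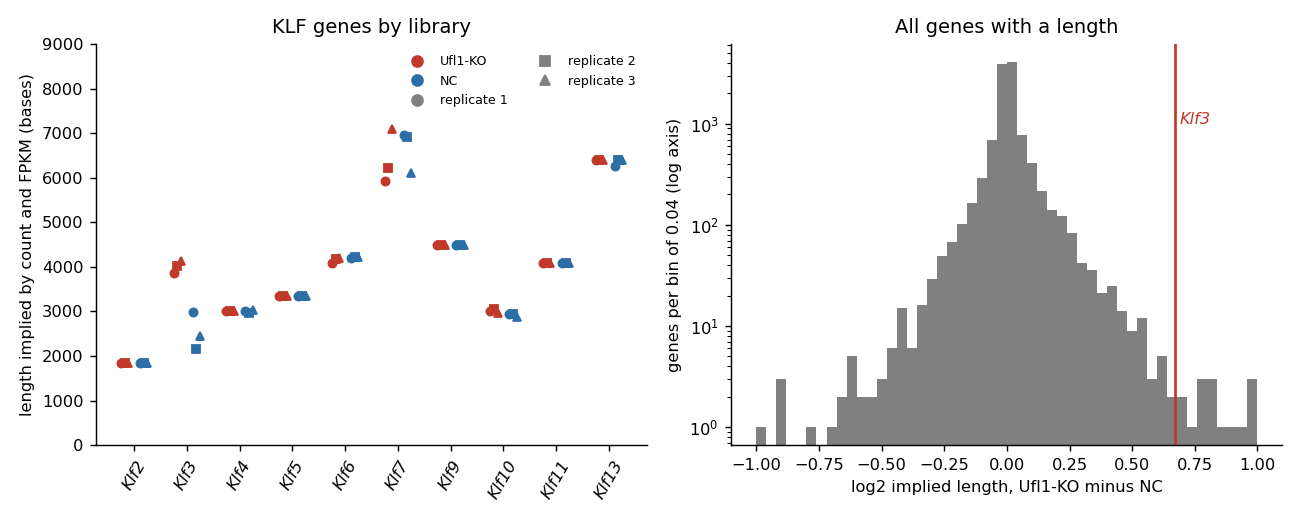
Left, the gene length implied by count and FPKM (bases) for each KLF gene and library, Ufl1-KO red and NC blue, with 3 libraries per group; right, the log2 difference of that length, Ufl1-KO minus NC, for all genes with a length (values beyond 1 drawn at the ends, log count axis). Klf3 has the widest gap between groups among the members, at 0.67 on the right-hand axis.

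Of the 7 KLF genes outside the list, 4 could be tested, and 2 fell in Ufl1-KO and 0 rose, beside 33.1% lower and 33.0% higher of all tested genes. Klf15, a metabolic regulator in liver and muscle, was rare: it averaged 0.0985 ± 0.0601 CPM in Ufl1-KO and 1.16 ± 0.335 CPM in NC, a log2 fold change of -3.53 ± 0.49 (SE; edgeR adjusted p = 0.000238). Klf12, a CtBP-binding repressor like Klf3, averaged 3.89 ± 0.353 CPM in Ufl1-KO and 7.61 ± 0.103 CPM in NC and fell by 0.96 on the log2 scale (edgeR adjusted p = 0.000292). Klf3 was higher in the same libraries. Klf16, of the Sin3-binding group, was above several listed members at 13.9 ± 1.02 FPKM in Ufl1-KO and 14.0 ± 1.34 FPKM in NC, and its counts gave -0.19 ± 0.098 (SE; edgeR adjusted p = 0.114). Without NC replicate 1, Klf16 fell by 0.23 (edgeR adjusted p = 0.0203), which made 3 of the tested genes outside the list lower. Klf8 had a log2 fold change of 0.32 ± 0.25 (SE; edgeR adjusted p = 0.283). Klf1 and Klf17 did not pass the filter on low counts, and Klf14 had 0 counts in all 6 libraries, which allows up to 0.137 to 0.189 CPM per library for counting error alone.

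The SP genes, 7 of 9 tested, had 3 that fell in Ufl1-KO and 0 that rose (all genes 33.1% and 33.0%), with a median log2 fold change of -0.26 against 0.01 over all genes. Sp1, the widely expressed GC-box activator that competes with KLFs for sites, averaged 210 ± 3.51 CPM in Ufl1-KO and 338 ± 35.8 CPM in NC and fell by 0.69 on the log2 scale (edgeR adjusted p = 9.07e-05). Sp7, an osteoblast regulator, averaged 0.248 ± 0.137 CPM in Ufl1-KO and 0.800 ± 0.062 CPM in NC, a log2 fold change of -1.65 (edgeR adjusted p = 0.00626). Sp3 fell by 0.31 (edgeR adjusted p = 0.00403), a call lost when libraries were scaled by size alone (edgeR adjusted p = 0.106). Sp2 (-0.19), Sp4 (-0.26), Sp6 (0.52) and Sp9 (0.17) did not pass the threshold, and Sp5 and Sp8 were not tested.

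The corepressors and coactivators through which KLFs act were mostly higher: of 14 tested, 9 rose and 2, Sin3a and Hdac3, fell in Ufl1-KO (all genes 33.0% and 33.1%), with a median log2 fold change of 0.39. Ctbp1, the partner of Klf3 and Klf12, averaged 140 ± 3.76 CPM in Ufl1-KO and 102 ± 8.99 CPM in NC (log2 fold change 0.46; edgeR adjusted p = 0.000647). Sin3a, the scaffold bound by the Klf9, Klf10, Klf11 and Klf13 group, went down with most of that group, at 142 ± 4.79 CPM in Ufl1-KO and 210.5 ± 12.9 CPM in NC (log2 fold change -0.56; edgeR adjusted p = 9.37e-05). Hdac1, the deacetylase of the Sin3 complex, averaged 191 ± 5.08 CPM in Ufl1-KO and 100 ± 4.51 CPM in NC and rose by 0.94 on the log2 scale (edgeR adjusted p = 3.98e-06). Kat2a, a histone acetyltransferase, rose by 1.01 (edgeR adjusted p = 8.63e-06).

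Of 9 genes for enzymes that ubiquitinate or deubiquitinate KLF proteins, 3 rose and 2 fell, near the 33.0% and 33.1% of all genes. Fbxw7, the substrate receptor for Klf2 and Klf5 turnover, averaged 20.5 ± 1.27 CPM in Ufl1-KO and 11.8 ± 2.51 CPM in NC, a log2 fold change of 0.79 (edgeR adjusted p = 0.00116). The other calls were smaller: SMURF1 0.25, Bap1 0.19, Btrc -0.38 and Fbxo32 -0.48 (edgeR adjusted p = 0.0363, 0.0434, 0.00693 and 0.0369). Scaled by library size alone, 5 of the list were higher and 0 lower, Btrc (edgeR adjusted p = 0.0918) and Fbxo32 (edgeR adjusted p = 0.163) being lost. Under that scaling all genes moved up too, with 5471 higher and 3191 lower of 12580 and a median log2 fold change of 0.18. Without either NC replicate 2 or 3, SMURF1 was lost (edgeR adjusted p = 0.123 and 0.136), and without NC replicate 1, Fbxo32 (edgeR adjusted p = 0.0513). Each of the 3 Ufl1-KO libraries, left out, cost the calls of SMURF1 (edgeR adjusted p = 0.0831 to 0.0926) and Fbxo32 (edgeR adjusted p = 0.0545 to 0.117). Bap1 was lost without Ufl1-KO replicate 1, Ufl1-KO replicate 2 or NC replicate 3 (edgeR adjusted p = 0.119, 0.151 and 0.112) and in the DESeq2 Wald test (adjusted p = 0.0611).

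The route from the kinase MEKK3 through ERK5 to the MEF2 factors is the known inducer of Klf2 and Klf4 in endothelial cells, where the CCM proteins hold it back. Of its 11 genes, 3 rose and 4 fell, near the 33.0% and 33.1% of all genes. Without NC replicate 1, 5 rose and 4 fell, beside 37.6% and 37.4% of all genes. Mef2c, one of the MEF2 factors, had 5.39, 4.80 and 6.63 CPM in Ufl1-KO and 19.5, 31.7 and 29.8 CPM in NC. It fell 4.79-fold (log2 fold change -2.26 ± 0.20, SE; edgeR adjusted p = 1.9e-05). Klf2, whose start region carries the MEF2 box printed above, and Klf4 were higher in the same libraries. Mef2d fell by 0.48 on the log2 scale (edgeR adjusted p = 0.000317). The CCM genes Krit1 and Ccm2, known as brakes on this route, rose by 1.20 (edgeR adjusted p = 0.00029) and 0.79 (edgeR adjusted p = 0.00042). The genes of MEKK3 and ERK5 themselves were not called with all libraries: Map3k3 (0.20, edgeR adjusted p = 0.102) and Mapk7 (-0.16, edgeR adjusted p = 0.117). Nor were the CCM gene Pdcd10 (0.04, edgeR adjusted p = 0.69) and Heg1 (0.27, edgeR adjusted p = 0.0753). Whether any of these mRNA differences bears on Klf2 or Klf4 was not tested. The other calls were the kinase genes Map2k5 (0.20; edgeR adjusted p = 0.0453) and Map3k2 (-0.39; edgeR adjusted p = 0.000827) and Mef2a (-0.29; edgeR adjusted p = 0.0164). Map2k5 was lost without any 1 library other than NC replicate 1 (edgeR adjusted p = 0.0905 to 0.126), and Mef2a without any 1 Ufl1-KO library (edgeR adjusted p = 0.0535 to 0.0625) and with library size alone (edgeR adjusted p = 0.31). Of the 6 endothelial markers, Tie1 and Emcn were at 0, Cdh5 had under 1 CPM in every library and Tek averaged 1.13 ± 0.246 CPM in Ufl1-KO and 1.31 ± 0.663 CPM in NC. Kdr averaged 4.68 ± 0.614 CPM in Ufl1-KO and 4.02 ± 0.790 CPM in NC, and Pecam1 fell to 0.123 ± 0.169 CPM in Ufl1-KO, against 0.917 ± 0.263 CPM in NC (edgeR adjusted p = 0.0057).

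In the TGF-beta route, the known inducer of Klf10 and Klf11, 4 of 9 genes fell and 1 rose, beside 33.1% and 33.0% of all genes. Without NC replicate 1, 5 fell and 3 rose, beside 37.4% and 37.6%. Tgfb2, a ligand, averaged 15.8 ± 2.05 CPM in Ufl1-KO and 44.6 ± 3.29 CPM in NC, a log2 fold change of -1.49 (edgeR adjusted p = 7.05e-06). Smad7, the inhibitory SMAD and itself a direct TGF-beta target, averaged 41.4 ± 3.56 CPM in Ufl1-KO and 103 ± 4.0 CPM in NC, a log2 fold change of -1.32 (edgeR adjusted p = 2.48e-06). The shared signal carrier Smad4 fell by 0.38 (edgeR adjusted p = 0.00047), and the ligand Tgfb1 by 0.35 (edgeR adjusted p = 0.00223), a call lost with library size alone (edgeR adjusted p = 0.0635). The receptor gene Tgfbr1 rose by 0.69 (edgeR adjusted p = 0.00147). Klf10 and Klf11 were lower in the same libraries, and whether the one bears on the other was not tested.

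The immediate early genes fell more often than they rose, 10 against 4 of 21 (all genes 33.1% and 33.0%), with a median log2 fold change of -0.49. Egr1, a zinc-finger factor, had 91.7, 88.3 and 107 CPM in Ufl1-KO and 491, 441.5 and 498 CPM in NC, a log2 fold change of -2.32 ± 0.090 (SE; edgeR adjusted p = 3.8e-07). Zfp36, which destabilises AU-rich mRNAs, fell by 2.17 (edgeR adjusted p = 7.22e-07), the orphan receptor gene Nr4a1 by 1.77 (edgeR adjusted p = 5.5e-07), and Maff by 1.42 (edgeR adjusted p = 5.94e-07). Those that rose were Myc (1.14), Jund (0.44), Ier5 (0.37) and Srf (0.25), with edgeR adjusted p = 0.00861, 0.0408, 0.0258 and 0.0328. Without NC replicate 1 the list had 9 higher and 9 lower and a median of -0.06, and without any other single library Jund, Ier5 and Srf were lost, leaving 1 higher.

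Of the genes reported as KLF targets, 15 were tested, 4 rose and 6 fell (all genes 33.0% and 33.1%), with a median log2 fold change of -0.16. Ccnd1, the G1 cyclin that KLF5 activates and KLF4 represses, had 65.1, 71.7 and 63.2 CPM in Ufl1-KO and 14.9, 9.12 and 12.9 CPM in NC. It rose 5.42-fold (edgeR adjusted p = 3.17e-06) in libraries where Klf5 was lower and Klf4 higher. The CDK inhibitor genes Cdkn1a, which KLF4 activates, and Cdkn1b fell by 0.71 and 1.28 on the log2 scale (edgeR adjusted p = 9.49e-06 and 1.37e-05). Ccl5 and Plau also rose, by 0.93 and 0.83 (edgeR adjusted p = 1.91e-05 and 0.000103). KLF protein levels and binding at these genes were not measured.

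**Figure D5:**
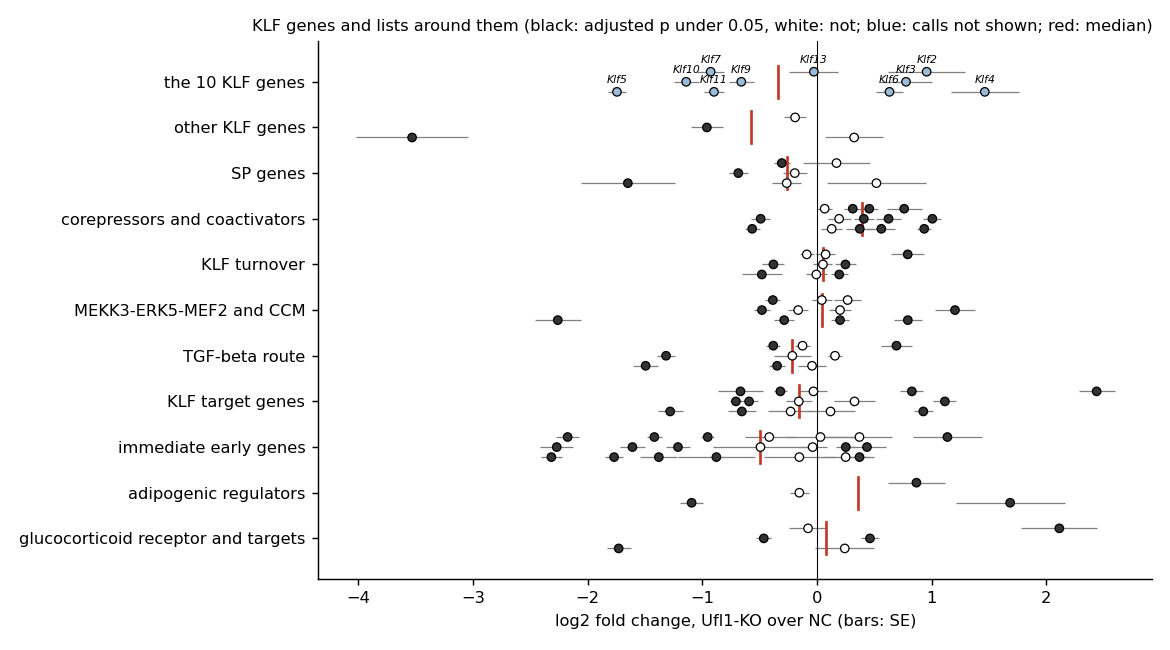
Log2 fold change, Ufl1-KO over NC, with its SE from the edgeR fit, for each tested gene of each list; black points passed an adjusted p of 0.05, white points did not, blue points are the 10 KLF genes, whose calls are not marked because they were chosen on this comparison, and red lines are list medians. The KLF genes spread from -1.74 (Klf5) to 1.46 (Klf4), while most coregulators lie above 0 and most called immediate early genes below it.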

How the data were processed

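Total RNA of MEFs was sequenced in 6 libraries, 3 Ufl1-KO and 3 NC. The authors deposited 1 table of estimated counts per gene, not normalised, and 1 of FPKM, which scales them by gene length and library total. Between 7.29% and 8.09% of count values per library were not whole (by more than 0.001), so counts were rounded. The submitters' processing notes list featureCounts 2.0.0, STAR 2.7.7a and fastp 0.20.1 with the builds GRCh38, hg38 and mm10, but no roles; for the annotation, strand setting and FPKM tool, nothing is given in the sources used here. The 1225 rows without a gene name, with 0.594% to 0.661% of counts, were left out, and rows sharing a name were tested separately.

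Counts were tested with edgeR 4.0.16 in R 4.3.3 (TMM, filterByExpr, quasi-likelihood test, two-sided, Benjamini-Hochberg adjustment over 12580 genes, threshold 0.05), which was also tested on simulated data. Fold changes are Ufl1-KO over NC, on the log2 scale. Alternatives used other scalings or filters, DESeq2 1.42.0, limma 3.58.1 on FPKM, a replicate block and each library left out. The members and all gene lists were chosen with earlier results of these data known. Named genes were all KLF and SP genes tested, up to 4 called genes of each other list with the smallest p, and members that a small count needed; the single values of 1 gene so chosen are not reported here. Implied lengths are count over FPKM, scaled by the library total, for genes with at least 20 counts and 0.1 FPKM in each library. Promoters are from RefSeq (GRCm38.p6); protein sequences were not analysed here. Summaries and figures used Python 3.11.15, pandas 2.3.3 and matplotlib 3.10.9.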

Additional observations from a re-analysis of the deposited data

How the results depend on the processing

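Over all genes the count called higher and lower in Ufl1-KO was 4146 and 4163 with TMM, and 5471 and 3191 with library size alone, where the centre of all genes was a log2 fold change of 0.18 instead of 0.01, and differences under that scaling are relative to it. The 5 lower KLF genes were called in every alternative run, while 2951 to 4757 of all genes were called lower. Their sizes moved with the scaling. With limma on log2(FPKM + 1), Klf5, Klf7, Klf9, Klf10 and Klf11 were at -1.5, -0.60, -0.45, -0.97 and -0.59 on the log2 scale. The centre of all genes in that run was 0.13. All runs re-fit the values that the list was chosen with, so calls on members are a description and not independent evidence. The number of KLF genes called higher, 4 of 10 with all libraries, ran from 2 to 5 when single libraries were left out, the 2 being without NC replicate 3. Over all genes the number called higher in those runs ran from 3545 to 4787, and was 3651 without NC replicate 3. Klf3 was not called with limma on FPKM, at 0.35 to 0.36 on the log2 scale. Its counts gave 0.78 with TMM and 0.95 with library size alone. Klf2 was not called with DESeq2. Klf13 was called only without NC replicate 1. No other alternative moved the KLF counts or the all-gene counts by over 1.5 times, and no KLF gene that was called changed sign. The replicate numbers do not pair the libraries: same-numbered libraries correlated in their deviations at 0.021, -0.135 and 0.044, and not each best with its own number. With the replicate block 3969 genes were higher and 3976 lower, and the same 9 KLF genes were called. The block cost the calls of Bap1, Srf and Map2k5 (edgeR adjusted p = 0.072, 0.0703 and 0.12). In promoter windows of 200 instead of 250 bases, TGACG was in 2 of 8 members instead of 4. Searches of protein sequences, planned with the rest, were not run.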

Other observations

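Klf9 is a known target of the glucocorticoid receptor, and the receptor gene Nr3c1 fell, with a mean of 185.5 ± 10.3 CPM over 3 Ufl1-KO libraries and 256 ± 9.88 CPM over 3 NC libraries (SD; log2 fold change -0.46; edgeR adjusted p = 0.000252). Of the 5 tested targets of the receptor, 2 rose and 1 fell, beside 33.0% and 33.1% of all genes. Sgk1, a kinase gene, had 84.2, 91.4 and 77.9 CPM in Ufl1-KO and 33.0, 10.3 and 15.4 CPM in NC, and rose 4.33-fold (edgeR adjusted p = 0.00047). Fkbp5, a chaperone gene of the receptor complex, rose by 0.46 on the log2 scale (edgeR adjusted p = 0.000895), and the clock gene Per1 fell by 1.73 (edgeR adjusted p = 2.38e-06).

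Among regulators of adipogenesis, a process in which Klf2, Klf3, Klf4, Klf5, Klf6, Klf7 and Klf9 are known to act, Cebpb averaged 60.3 ± 1.53 CPM in Ufl1-KO and 129 ± 19.2 CPM in NC and fell by 1.09 on the log2 scale (edgeR adjusted p = 2.48e-05). Pparg rose by 0.87 (edgeR adjusted p = 0.0123), at low levels of 3.002 ± 0.213 CPM in Ufl1-KO and 1.67 ± 0.520 CPM in NC. Cebpa rose by 1.68 (edgeR adjusted p = 0.0118) at under 2 CPM in every library, and Cebpd did not pass the threshold. Without Ufl1-KO replicate 3, or with a CPM minimum of 1 in 3 libraries, Cebpa did not pass the filter on low counts.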
